A study of Homo sapiens with 21 samples.

Results

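The genes described here are 10 genes of sialic acid synthesis and transfer: GNE and CMAS, which make the sugar donor, and the sialyltransferases ST3GAL1, ST3GAL2, ST3GAL3, ST3GAL4, ST3GAL5, ST3GAL6, ST6GAL1 and ST6GALNAC4. They were taken by gene symbol from count tables that list 28008 genes each, and all 10 were present. The tables cover mRNA of 21 libraries from 2 human cell lines, OCI-AML3 from an acute myeloid leukaemia and K562 from the blast crisis of a chronic myeloid leukaemia. There were 7 groups of 3 libraries in 2 sequencing batches. Batch 1 held parental OCI-AML3, OCI-AML3 kept in DMSO vehicle, OCI-AML3 labelled resistant to StAMP (biological replicate 1, resistant 1 from here on) and parental K562. Batch 2 held a vehicle group, resistant 1, and biological replicate 2 of the resistant cells (resistant 2). StAMP is named in the labels without being written out, and the culture, dosing and selection of the cells are not described in the texts at hand. Nothing there says that the 3 libraries of a group came from separate cultures, so p-values measure only the spread between these samples, which may be technical.

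Sialic acids are acidic sugars that end many glycan chains of glycoproteins and glycolipids and give the cell surface much of its negative charge. GNE starts their synthesis from UDP-N-acetylglucosamine, and CMAS joins the finished sugar to CMP in the nucleus to form the donor that all sialyltransferases use. In the Golgi, enzymes of the ST3GAL family attach sialic acid to galactose through an alpha-2,3 bond, ST6GAL1 attaches it to galactose of N-glycans through an alpha-2,6 bond, and ST6GALNAC4 adds it to N-acetylgalactosamine of O-glycans. On blood cells these caps are known as ligands or masks for selectins, galectins and Siglec receptors.

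Library totals were 14066821 to 21091646 counts in batch 1 and 30719771 to 51262668 counts in batch 2. Across 10784 genes, the libraries labelled resistant 1 in batch 1 correlated with the vehicle libraries of batch 1 at r = 0.507 to 0.510 and with parental K562 at r = 0.978 to 0.980. In batch 2 the libraries labelled resistant correlated with their vehicle libraries at r = 0.553 to 0.576 and with the batch 1 K562 libraries at r = 0.901 to 0.940. The summed level of 10 erythroid markers was 13.7 to 31.9 CPM (reads of a gene per 1000000 reads counted) in every parental and vehicle OCI-AML3 library, with HBZ at 0 in all of them. The sum was 2821 to 3044 CPM in resistant 1 of batch 1, 2984 to 3110 in K562, and in batch 2 it was 1136 to 1245 for resistant 1 and 678 to 943 for resistant 2, with none of the 10 at 0. For 10 myeloid markers it was 1967 to 2556 CPM in parental and vehicle OCI-AML3, 73.3 to 176 in the libraries labelled resistant and 32.8 to 37.8 in K562. IRF8 was at 0 in both resistant groups of batch 2, and MPO was at 0 in K562. For 6 fibroblast and epithelial markers the sum was 0.108 to 4.97 CPM in parental and vehicle OCI-AML3, with EPCAM and CDH1 at 0 in all of those libraries, 165 to 275 CPM in the libraries labelled resistant and 311 to 322 CPM in K562, most of it KRT8 and EPCAM. For 6 lymphoid markers it was 1.25 to 2.48 CPM in parental and vehicle OCI-AML3, 4.52 to 18.0 in the libraries labelled resistant and 10.3 to 12.1 in K562, with MS4A1 at 0 in the last 2 sets. By correlation, the libraries labelled resistant OCI-AML3 were close to K562. Their erythroid marker sum was close to that of K562 in batch 1 and between those of vehicle and K562 in batch 2. By correlation and by markers they were far from OCI-AML3, so the cell line on their label is in doubt. In every comparison of resistant with vehicle libraries given below, a difference between cell lines and one that goes with resistance cannot be told apart, and the part of the marker values in them was not tested. In bulk RNA, fewer cells of a type and less RNA per cell cannot be told apart.

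In GENCODE v44 on hg38 the 10 genes lie on 8 chromosomes. ST6GAL1 spans chr3:186930325-187078553 on the plus strand, ST3GAL6 spans chr3:98732236-98821201 on the plus strand, and CMAS spans chr12:22046218-22065674 on the plus strand. ST3GAL2 spans chr16:70375977-70439237 on the minus strand. Promoter windows from RefSeq (GRCh38.p14), each running from 250 bases before a transcript start to 50 after it, were found for 8 of the 10 genes, with 18 windows in all. ST3GAL1 and ST3GAL2 had no entry. The part before the start is shown for the most upstream window of 3 genes that the results turn on: ST6GAL1 and CMAS, which were higher in the libraries labelled resistant, and ST3GAL6, which was nearly undetected there. All 3 are read 5′ to 3′ on the plus strand. Capitals mark matches, on either strand, to a GATA motif (spelled AGATAA, or with T as its first letter TGATAA, or with G as the last letter AGATAG, or with both changes TGATAG), an ETS motif spelled GGAAGT, or a GC box spelled GGGCGG.
ST6GAL1 chr3:186930276-186930525: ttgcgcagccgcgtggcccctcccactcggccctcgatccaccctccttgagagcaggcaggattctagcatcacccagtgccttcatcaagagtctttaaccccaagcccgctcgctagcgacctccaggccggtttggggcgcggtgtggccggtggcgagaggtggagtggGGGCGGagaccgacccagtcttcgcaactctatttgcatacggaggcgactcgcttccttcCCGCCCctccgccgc
CMAS chr12:22045968-22046217: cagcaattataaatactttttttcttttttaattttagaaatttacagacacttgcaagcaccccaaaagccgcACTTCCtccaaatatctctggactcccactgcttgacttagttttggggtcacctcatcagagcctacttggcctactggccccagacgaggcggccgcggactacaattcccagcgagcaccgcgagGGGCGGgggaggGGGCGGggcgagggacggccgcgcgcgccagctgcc
ST3GAL6 chr3:98732012-98732261: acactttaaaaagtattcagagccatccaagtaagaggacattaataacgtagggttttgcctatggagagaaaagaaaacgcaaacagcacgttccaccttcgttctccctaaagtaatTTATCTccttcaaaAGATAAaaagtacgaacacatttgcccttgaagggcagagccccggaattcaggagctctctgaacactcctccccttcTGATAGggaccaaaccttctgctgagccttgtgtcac

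The ST6GAL1 window held a GC box 76 bases before the start, in the capitals GGGCGG, and another 15 bases before it, read on the opposite strand. That of CMAS held an ETS match 176 bases before the start and GC boxes 48 and 36 bases before it. In the ST3GAL6 window shown there was no GC box, and 3 GATA matches began 130, 116 and 37 bases before the start. ST3GAL6 had 4 windows, and none of the others held a GATA match. Those starting at base 98732451 and base 98733206 held 3 and 1 GC boxes. Over the whole 300 bases, the GATA motif occurred in 1 of the 18 windows of these genes and in 25.0% of 35116 RefSeq windows of the same length. The ETS motif occurred in 2 of 18 against 22.8%, and the GC box in 13 of 18 against 45.0%. Some of the 5 windows of ST3GAL5 overlap and hold the same GC boxes, so the 18 windows are not separate observations. None of the 3 motifs overlapped another in the 3 sequences shown. The counts are per gene, so which of a gene's starts was used is not known, and a match is a stretch of letters and not a measured binding site.

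Levels are given as CPM after scaling each batch by the trimmed mean of M-values (TMM). Batches were scaled separately, so tests were made within a batch. Fold changes are on the log2 scale, positive where the group named first is higher, with their standard error (SE). A gene is called where the adjusted p of the edgeR quasi-likelihood test, adjusted over all genes tested by Benjamini-Hochberg, is under 0.05. In batch 1, 9 of the 10 genes were called between resistant 1 and vehicle, 4 higher and 5 lower, where 86.0% of the 14609 genes tested were called, 41.8% higher and 44.2% lower. In batch 2 all 10 were called for resistant 1 against vehicle, 5 in each direction, where 75.7% of 15218 genes were called, 39.9% higher and 35.8% lower. All 10 were also called for resistant 2 against the same vehicle libraries, 5 in each direction, beside 76.1% of all genes, 40.2% higher and 35.9% lower. Most genes of the transcriptome were called in these comparisons, so the number of these genes called is near the background.

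The sizes of the changes can be read against the same background. The 10 genes were chosen with earlier results of these data known, so this reading is a description and not independent evidence of larger changes. The median absolute log2 fold change of the 10 genes was 2.00 for resistant 1 in batch 1, 1.79 for resistant 1 in batch 2 and 2.02 for resistant 2, where over all genes tested it was 0.85, 0.96 and 0.97. Genes called with an absolute log2 fold change of at least 1 were 7, 8 and 8 of the 10, beside 44.8%, 47.9% and 48.2% of all genes. The median signed change was -0.26, 0.43 and 0.46, as genes of both directions were about equally many.

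**Figure D1:**
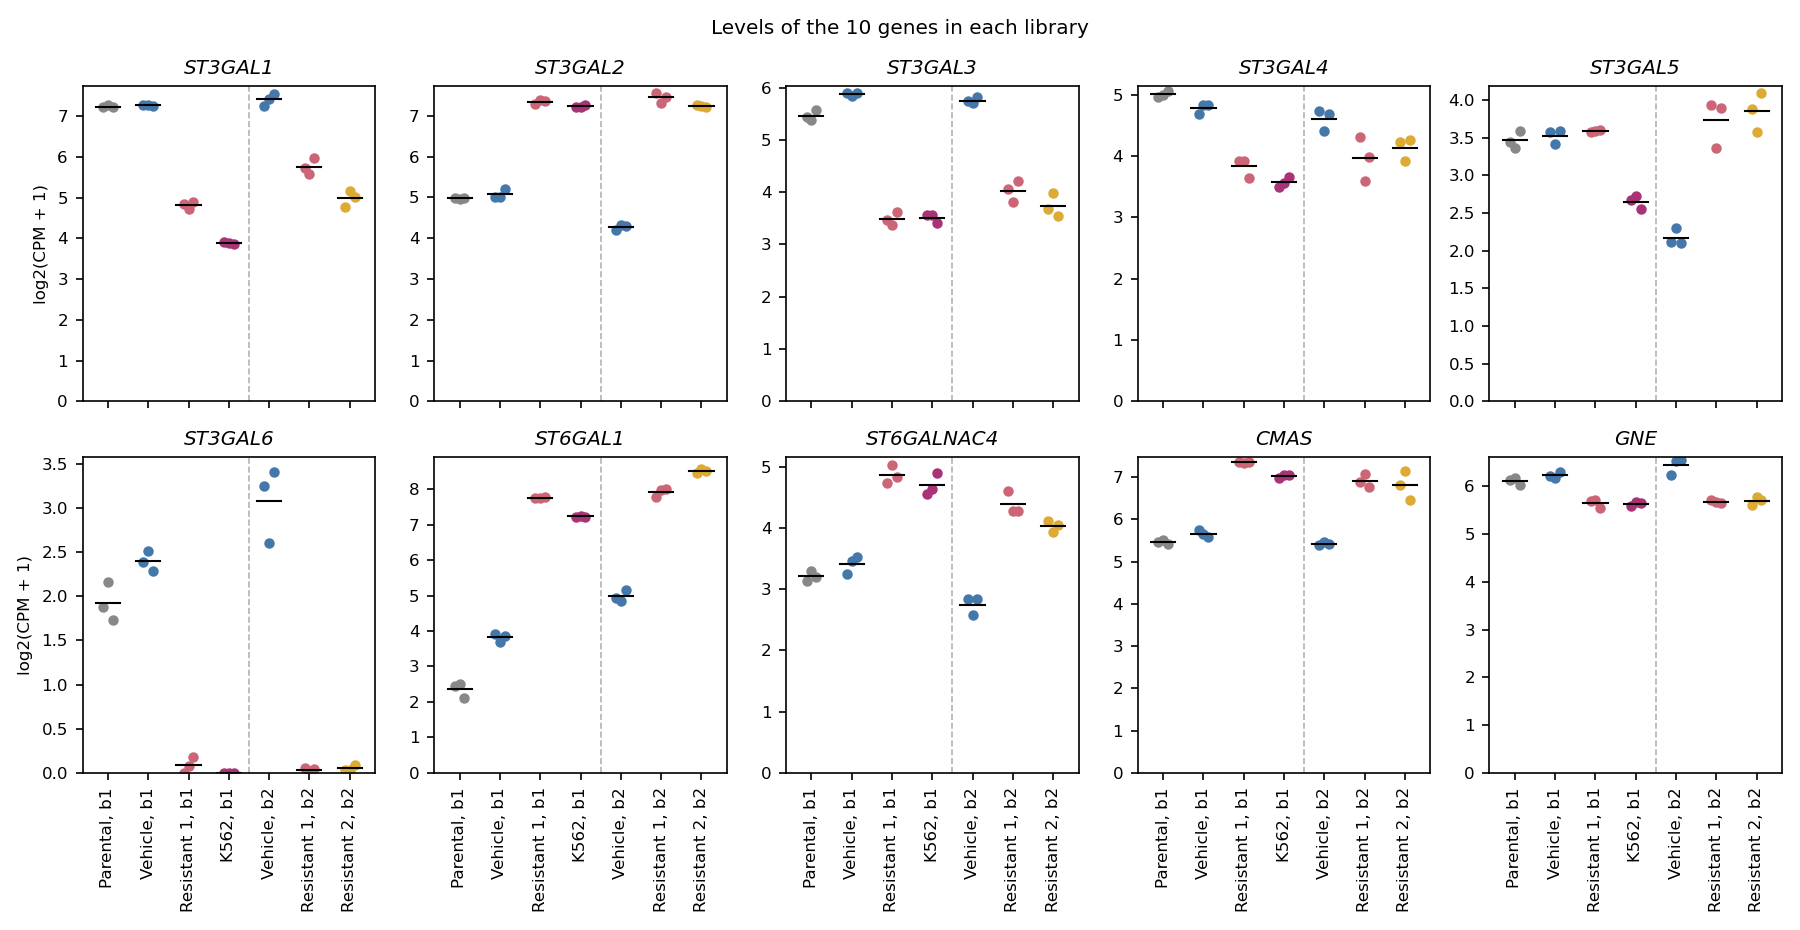
Level of each of the 10 genes in each of the 21 libraries, as log2(CPM + 1), with 1 point per library and a line at the mean of the 3 libraries of a group; b1 and b2 are batches 1 and 2, separated by a dashed line, and each was scaled on its own. ST6GAL1, ST3GAL2, CMAS and ST6GALNAC4 sit higher, and ST3GAL1, ST3GAL3, ST3GAL4, ST3GAL6 and GNE lower, in all libraries labelled resistant than in the vehicle libraries of their batch.

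Of the enzymes that make the donor sugar, CMAS was higher and GNE lower in the libraries labelled resistant. CMAS stood at 52.7, 49.2 and 47.1 CPM in the vehicle libraries of batch 1 and at 165, 162 and 162 CPM in resistant 1. In batch 2 it stood at 41.3, 43.0 and 41.6 CPM in vehicle, 118, 134 and 109 CPM in resistant 1, and 112, 140.3 and 86.8 CPM in resistant 2. No library labelled resistant overlapped a vehicle library in CMAS, and the 3 libraries of resistant 2 were the most spread. The log2 fold change of CMAS was 1.71 (SE 0.05, adjusted p = 6.34e-22) for resistant 1 in batch 1, 1.52 (SE 0.15, adjusted p = 3.43e-07) for resistant 1 in batch 2 and 1.43 (SE 0.15, adjusted p = 6.5e-07) for resistant 2.

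GNE, the bifunctional epimerase and kinase of the first steps, was measured at 73.6, 71.7 and 78.2 CPM in vehicle and at 50.8, 51.4 and 45.9 CPM in resistant 1 of batch 1. In batch 2 the vehicle libraries held 75.0, 91.8 and 93.2 CPM, resistant 1 held 51.4, 49.9 and 49.4 CPM, and resistant 2 held 48.0, 53.5 and 51.6 CPM. The groups did not overlap, and the 4 groups outside parental and vehicle OCI-AML3, K562 among them, had means within 48.9 to 51.0 CPM. The log2 fold change of GNE was -0.59 in batch 1 (SE 0.06, adjusted p = 3.91e-10), -0.79 in resistant 1 of batch 2 (SE 0.11, adjusted p = 1.5e-05) and -0.76 in resistant 2 (SE 0.11, adjusted p = 1.93e-05). These were among the smaller changes of the 10 genes.

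ST6GAL1, the alpha-2,6 sialyltransferase of N-glycans, had the largest rise of the 10 genes in batch 1 and in resistant 2. Its level was 14.1, 11.8 and 13.5 CPM in the vehicle libraries of batch 1 and 213, 214 and 218 CPM in resistant 1. In batch 2 it was 29.5, 27.9 and 34.9 CPM in vehicle, 219, 249 and 254 CPM in resistant 1, and 353, 381 and 363 CPM in resistant 2. All libraries labelled resistant lay above all vehicle libraries, with resistant 2 above resistant 1. The log2 fold change was 4.04 (SE 0.07, adjusted p = 3.88e-28) in batch 1, a 16.4-fold difference. It was 2.97 (SE 0.12, adjusted p = 1.2e-11), or 7.82-fold, for resistant 1 in batch 2 and 3.57 (SE 0.12, adjusted p = 2.11e-12), or 11.9-fold, for resistant 2.

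ST3GAL1 and ST3GAL2 both place alpha-2,3 sialic acid on core 1 O-glycans, ST3GAL2 also on gangliosides, and they moved in opposite directions. ST3GAL1 stood at 153, 153 and 152 CPM in vehicle and 28.0, 25.4 and 28.6 CPM in resistant 1 of batch 1. In batch 2 it stood at 152, 171 and 187 CPM in vehicle, 52.2, 46.5 and 62.0 CPM in resistant 1, and 26.2, 35.1 and 31.4 CPM in resistant 2. Every vehicle library was above every library labelled resistant. ST3GAL1 changed by -2.48 on the log2 scale in batch 1 (SE 0.05, adjusted p = 3.31e-25), by -1.67 in resistant 1 of batch 2 (SE 0.14, adjusted p = 5.23e-08) and by -2.46 in resistant 2 (SE 0.14, adjusted p = 8.03e-10). Annotation holds a processed pseudogene of ST3GAL1 that the tables do not list, and how reads of the pseudogene were counted is not stated.

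For ST3GAL2 the vehicle libraries of batch 1 held 31.3, 31.3 and 36.2 CPM and those of resistant 1 held 154, 166 and 163 CPM. In batch 2, vehicle held 17.4, 19.1 and 18.6 CPM, resistant 1 held 188, 159 and 176 CPM, and resistant 2 held 152, 150.4 and 147 CPM. The lowest library labelled resistant was well above the highest vehicle library in both batches. For ST3GAL2 the log2 fold change was 2.30 (SE 0.06, adjusted p = 6.5e-24) in batch 1, 3.25 (SE 0.11, adjusted p = 1.67e-12) for resistant 1 in batch 2 and 3.03 (SE 0.11, adjusted p = 3.19e-12) for resistant 2. Per kilobase of exon, ST3GAL1 was the more abundant of the pair in batch 1 vehicle (17.4 against 3.38 CPM per kilobase) and ST3GAL2 in resistant 1 of batch 1 (16.5 against 3.11).

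ST3GAL3, ST3GAL4 and ST3GAL6 act on galactose of N-glycans and of lactosamine chains, and ST3GAL4 and ST3GAL6 are known for making the sialyl Lewis x ligands of selectins. All 3 fell in each comparison of resistant with vehicle libraries. ST3GAL3 was at 58.6, 56.4 and 58.9 CPM in vehicle and 10.05, 9.34 and 11.3 CPM in resistant 1 of batch 1. In batch 2 it was at 52.3, 50.9 and 55.6 CPM in vehicle, 15.6, 13.0 and 17.6 CPM in resistant 1, and 11.8, 14.8 and 10.7 CPM in resistant 2. The vehicle group stood apart in both batches, while the resistant groups of batch 2 overlapped each other. ST3GAL3 had log2 fold changes of -2.51 (SE 0.08, adjusted p = 1.78e-21), -1.78 (SE 0.15, adjusted p = 5.53e-08) and -2.09 (SE 0.15, adjusted p = 9.84e-09) for resistant 1 in batch 1, resistant 1 in batch 2 and resistant 2. Its exons share 1951 bases with ENSG00000284989, a protein-coding gene on the same strand that the tables do not list.

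ST3GAL4 showed a smaller difference. Its level was 24.8, 27.6 and 27.5 CPM in vehicle and 14.2, 14.2 and 11.6 CPM in resistant 1 of batch 1. In batch 2 it was 25.6, 20.3 and 24.7 CPM in vehicle, 18.8, 11.0 and 14.9 CPM in resistant 1, and 17.7, 14.2 and 18.2 CPM in resistant 2. The highest resistant library of batch 2 came near the lowest vehicle library without reaching it. The log2 change was -0.99 (SE 0.08, adjusted p = 1.99e-11) in batch 1, -0.66 (SE 0.18, adjusted p = 0.00452) for resistant 1 in batch 2 and -0.50 (SE 0.18, adjusted p = 0.0223) for resistant 2. The call for resistant 2 was lost without vehicle replicate 1 (-0.42), vehicle replicate 3 (-0.46) or resistant 2 replicate 2 (-0.39), and it was lost when library totals replaced TMM factors (-0.21). Its adjusted p ran from 0.00283 to 0.302 over 12 alternatives.

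ST3GAL6 was close to absent from the libraries labelled resistant. The vehicle libraries of batch 1 held 76, 96 and 57 counts of it, and those of resistant 1 held 0, 1 and 2. In batch 2 there were 394, 192 and 309 counts in vehicle, 2, 0 and 1 in resistant 1, and 1, 1 and 3 in resistant 2. Vehicle levels were 4.29 ± 0.411 CPM in batch 1 and 7.72 ± 2.34 CPM in batch 2 (SD, n = 3 libraries each). With so few counts the difference is given as a ratio of depth-scaled counts. ST3GAL6 was 78.7-fold lower in resistant 1 of batch 1 (95% interval 26.6 to 385, 3 counts against 229) and 312-fold lower in resistant 1 of batch 2 (95% interval 106 to 1514, 3 counts against 895), the intervals covering counting error only. All 3 comparisons passed the test (adjusted p = 3.8e-13, 1.59e-09 and 1.4e-09). ST3GAL6 passed the filter on low counts only through the parental and vehicle groups, where it is high, so these calls are a description. Exons of ST3GAL6 share 354 bases with PDLIM1P4, a processed pseudogene on the same strand that the tables do not list, 235 bases with DCBLD2 and 174 with ST3GAL6-AS1 on the opposite strand, and the kit marked strand but the strand setting of the counting is not given.

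ST3GAL5 makes the ganglioside GM3 from lactosylceramide. It behaved differently in the 2 batches. In batch 1 vehicle held 11.0, 9.62 and 11.0 CPM and resistant 1 held 10.9, 11.0 and 11.1 CPM. In batch 2 vehicle held 3.32, 3.93 and 3.29 CPM, resistant 1 held 14.3, 9.27 and 13.8 CPM, and resistant 2 held 13.8, 11.0 and 16.0 CPM. The groups overlapped in batch 1 and stood apart in batch 2. The log2 fold change was 0.07 (SE 0.10, adjusted p = 0.506) in batch 1, 1.83 (SE 0.21, adjusted p = 1.37e-06) for resistant 1 in batch 2 and 1.95 (SE 0.21, adjusted p = 6.74e-07) for resistant 2.

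ST6GALNAC4, which adds alpha-2,6 sialic acid to already sialylated core 1 O-glycans, rose in all 3 comparisons. It was measured at 8.50, 9.97 and 10.5 CPM in vehicle and 25.7, 31.7 and 27.4 CPM in resistant 1 of batch 1. Batch 2 gave 6.11, 4.96 and 6.11 CPM in vehicle, 23.3, 18.3 and 18.5 CPM in resistant 1, and 16.3, 14.3 and 15.5 CPM in resistant 2. No resistant library overlapped a vehicle library. Its log2 fold change was 1.55 (SE 0.10, adjusted p = 1.11e-13), 1.81 (SE 0.16, adjusted p = 7.25e-08) and 1.42 (SE 0.16, adjusted p = 9.34e-07). A processed pseudogene of ST6GALNAC4 is annotated, is not listed in the tables, and may share its reads.

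**Figure D2:**
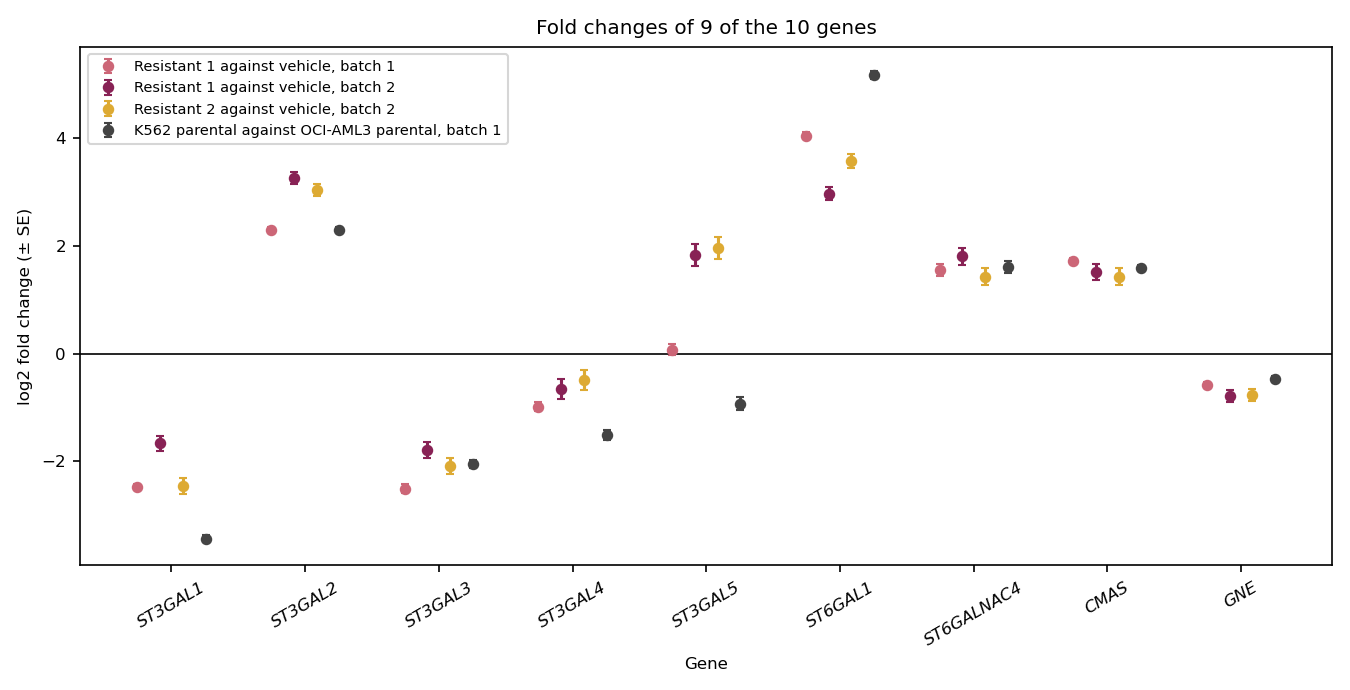
Log2 fold change (vertical axis, bars ± SE) of 9 of the 10 genes in 4 comparisons; ST3GAL6 is left out because its resistant and K562 groups hold at most 5 counts each. ST6GAL1 lies highest for K562 at 5.17 and for resistant 1 of batch 1 at 4.04, ST3GAL1 lies lowest for K562 at -3.43, ST3GAL3 (-2.51) and ST3GAL1 (-2.48) lie lowest for resistant 1 of batch 1, and ST3GAL5 is the gene whose values lie on both sides of 0.

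Setting the genes side by side needs levels per length. Here CPM was divided by the summed exon length of each gene in kilobases, and the share of each of the 7 enzymes that sialylate galactose (ST3GAL1 to ST3GAL6 and ST6GAL1) in their sum was taken in each library. ST3GAL1 made up 58.5% ± 0.821 of that sum in parental OCI-AML3 and 56.6% ± 0.870 in batch 1 vehicle, and 7.34% ± 0.488 in resistant 1 and 4.78% ± 0.139 in K562 (SD, n = 3 libraries each). In batch 2 its share was 60.2% ± 2.89 in vehicle, 12.2% ± 1.17 in resistant 1 and 6.27% ± 0.756 in resistant 2. ST3GAL1 held the largest share in the parental and vehicle groups. With each gene's longest transcript as length in place of all exons, its share was lower there, at 41.6% in parental OCI-AML3, 39.4% in batch 1 vehicle and 42.5% in batch 2 vehicle.

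ST6GAL1 took the opposite course, with a share of 1.28% ± 0.217 in parental OCI-AML3, 3.84% ± 0.344 in vehicle, 45.5% ± 0.471 in resistant 1 and 40.6% ± 0.551 in K562 of batch 1 (SD, n = 3 each). In batch 2 its share was 8.59% ± 0.458 in vehicle, 43.6% ± 4.03 in resistant 1 and 58.6% ± 0.807 in resistant 2. ST3GAL2 accounted for 11.0%, 39.0% and 46.5% in vehicle, resistant 1 and K562 of batch 1, and for 5.89%, 36.0% and 27.5% in the 3 groups of batch 2. The shares of no resistant library overlapped those of a vehicle library for any of these 3 enzymes. Here too the shares moved with the length used, and with the longest transcript ST3GAL2 accounted for 23.9% and ST6GAL1 for 57.7% in resistant 1 of batch 1. These are shares of mRNA, and enzyme activity and glycans were not measured here.

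**Figure D3:**
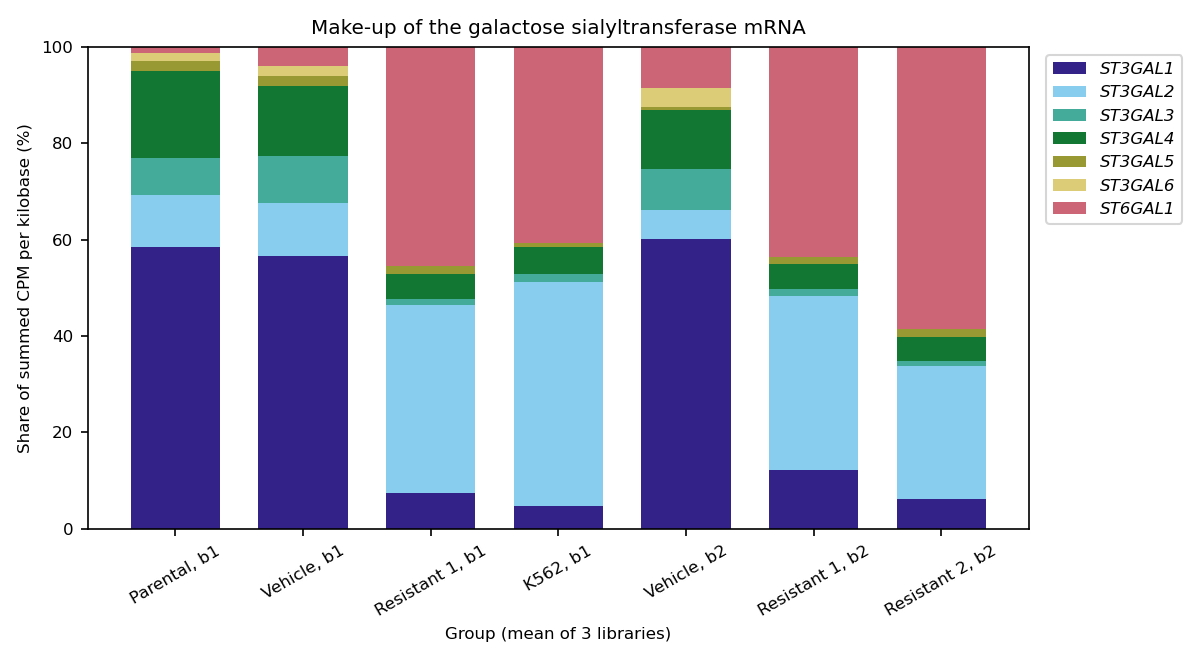
Share of each of 7 galactose sialyltransferases in their summed CPM per kilobase of exon (vertical axis, percent), 1 bar for the mean of the 3 libraries of each group, with b1 and b2 the batches. The ST3GAL1 block fills 56.6% to 60.2% of the parental and vehicle bars and 4.78% to 12.2% of the others, and the ST6GAL1 block fills 1.28% to 8.59% and 40.6% to 58.6%.

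CMAS had the highest level per kilobase of all 10 genes in each of the 7 groups, with 25.2 ± 1.42 CPM per kilobase in batch 1 vehicle and 82.5 ± 0.810 in resistant 1 (SD, n = 3). With the longest transcript as length, ST3GAL1 stood above it in batch 2 vehicle (24.5 against 24.0) and ST6GAL1 in resistant 2 (74.7 against 64.6). At the other end, ST3GAL6 had the lowest level per kilobase in the resistant and K562 groups, and ST6GAL1 in parental OCI-AML3, at 0.371 ± 0.0623 against 0.447 ± 0.0930 for ST3GAL6, an order that turned with the longest transcript (0.844 against 0.790).

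Of the OCI-AML3 groups that were not labelled resistant, the 2 of batch 1 were compared with each other. In batch 1, 5 of the 10 genes were called between vehicle and parental OCI-AML3, 4 higher and 1 lower, where 37.0% of all genes tested were called, 21.4% higher and 15.6% lower. ST6GAL1 had the largest of these differences. Parental libraries held 4.41, 4.64 and 3.34 CPM of it, and vehicle libraries 14.1, 11.8 and 13.5 CPM, with no overlap. The log2 fold change was 1.66 (SE 0.11, adjusted p = 2.01e-12), or 3.15-fold. The other genes called differed by less than 1 on the log2 scale.

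ST3GAL3 rose by 0.43 (SE 0.07, adjusted p = 9.49e-06) and CMAS by 0.21 (SE 0.06, adjusted p = 0.00501) from parental to vehicle. ST3GAL6 was higher by 0.61 (SE 0.20, adjusted p = 0.0169) and ST3GAL4 lower, at -0.23 (SE 0.08, adjusted p = 0.021). The last 2 calls depended on single libraries, and without parental replicate 3 the count of genes called was 3. That of ST3GAL4 was lost without vehicle replicate 1 or parental replicate 3, with adjusted p from 0.00839 to 0.116 over 12 alternatives. That of ST3GAL6 was lost without vehicle replicate 2, parental replicate 1 or parental replicate 3, and with DESeq2, over a range of 0.00695 to 0.0972. ST3GAL1, the most abundant of the ST3GAL genes in these cells per kilobase, differed by 0.03 (SE 0.05, adjusted p = 0.643).

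The 2 resistant groups of batch 2 were then compared with each other. Only ST3GAL1 and ST6GAL1 of the 10 genes were called by the edgeR test, 1 in each direction, where 24.4% of all genes tested were called, 12.4% higher and 11.9% lower. That background moved when 1 library was left out: 3706 genes were called with all of them, and 2323 to 2467 without replicate 1 or replicate 3 of either group. ST6GAL1 was higher in resistant 2 than in resistant 1 by 0.60 (SE 0.11, adjusted p = 0.0015), and ST3GAL1 was lower, at -0.79 (SE 0.14, adjusted p = 0.00103). Within batch 2, the difference in both genes went further in the direction that separated each resistant group from vehicle. Against vehicle, ST6GAL1 stood at 3.57 in resistant 2, between the 4.04 and 2.97 of resistant 1 in batches 1 and 2. ST3GAL1 stood at -2.46 in resistant 2, between the -2.48 and -1.67 of resistant 1. Of the others, ST6GALNAC4 stood at -0.38 (SE 0.15, adjusted p = 0.0747), without overlap of the groups, and was called when the replicate number was added as a block (-0.38, adjusted p = 0.0462, range over 12 alternatives 0.0462 to 0.297). The remaining 7 genes had log2 differences between -0.31 and 0.50, none called. ST3GAL3, at -0.31 (SE 0.15, adjusted p = 0.152), was called without resistant 2 replicate 2 (-0.45, adjusted p = 0.0273). When library totals replaced TMM factors, the share of higher genes among all calls of this comparison moved from 51.0% to 65.1%, and in resistant 2 against vehicle from 52.9% to 63.5%.

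K562 and OCI-AML3, both as parental cells in batch 1, differed in all 10 genes, 4 higher and 6 lower in K562, where 85.1% of all genes tested were called, 42.9% higher and 42.2% lower. ST6GAL1 stood at 148, 151 and 148 CPM in K562 (log2 fold change 5.17, SE 0.08, adjusted p = 2.31e-28). ST3GAL1 stood at 14.1, 13.8 and 13.5 CPM in K562 and at 147, 153 and 148 CPM in parental OCI-AML3 (log2 fold change -3.43, SE 0.06, adjusted p = 2.51e-27). Both lines are well apart in these genes, with the same direction as between resistant 1 and vehicle. ST3GAL2 (2.29), CMAS (1.59) and ST6GALNAC4 (1.61) were also higher in K562, and ST3GAL3 (-2.05), ST3GAL4 (-1.51), ST3GAL5 (-0.93) and GNE (-0.47) were lower, with an adjusted p of 4.3e-08 for ST3GAL5, the largest among these. ST3GAL6 had no count in any K562 library and 45, 53 and 34 in the parental OCI-AML3 libraries, so it was at least 46.7-fold lower in K562, taking 3 counts over the group as the floor.

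Resistant 1 and K562 of batch 1 were tested directly. ST3GAL1, ST3GAL4, ST3GAL5, ST6GAL1 and CMAS were called, all 5 higher in resistant 1, where 53.2% of all genes tested were called, 27.0% higher and 26.2% lower. ST3GAL5 had the largest difference, with 10.9, 11.0 and 11.1 CPM in resistant 1 and 5.35, 5.64 and 4.85 CPM in K562 (log2 1.07, SE 0.11, adjusted p = 1.35e-08). ST3GAL1 differed by 0.98 (SE 0.07, adjusted p = 3.77e-12), ST6GAL1 by 0.53 (SE 0.05, adjusted p = 1.76e-09), CMAS by 0.33 (SE 0.05, adjusted p = 1.56e-06) and ST3GAL4 by 0.29 (SE 0.10, adjusted p = 0.0143). The ST3GAL4 groups overlapped, and its call was lost without resistant 1 replicate 1 (0.24, adjusted p = 0.0773, range over 12 alternatives 0.00106 to 0.0773).

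The other 5 genes were not called between resistant 1 and K562. GNE had group means of 49.4 ± 2.99 and 48.9 ± 1.43 CPM (log2 0.02, SE 0.06, adjusted p = 0.85) and ST3GAL3 had 10.2 ± 1.02 and 10.4 ± 0.646 CPM (SD, n = 3; log2 -0.03, SE 0.10, adjusted p = 0.824). ST3GAL2 was at 0.11 (SE 0.05, adjusted p = 0.065) and crossed the threshold in 9 of its 12 alternatives, which ran from 0.00215 to 0.0814. ST6GALNAC4 was at 0.17 (SE 0.09, adjusted p = 0.136) and was called with library totals (0.25) and without K562 replicate 3 (0.28). Measured by group means in batch 1, resistant 1 lay nearer to K562 than to vehicle in 9 of the 10 genes, all but ST3GAL5, as it did in 80.6% of the 14609 genes tested. When library totals replaced TMM factors, the share of higher genes among all calls of this comparison moved from 50.8% to 63.5%.

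The fold change of resistant 1 over vehicle was measured in both batches, and 5 of the 10 genes differed between them, where 33.2% of all genes tested were called, 15.0% higher in batch 2 and 18.2% lower. This difference came from 1 fit of the 12 libraries with TMM factors of its own, so it is not exactly the gap between the fold changes fitted within each batch. ST3GAL5 had the largest difference, 1.67 (SE 0.22, adjusted p = 2.73e-05). Its vehicle groups stood at 10.5 ± 0.785 CPM in batch 1 and 3.51 ± 0.360 CPM in batch 2, and its resistant 1 groups at 11.0 ± 0.104 and 12.5 ± 2.79 CPM (SD, n = 3), each scaled within its batch. For ST6GAL1, whose fold change was smaller in batch 2, vehicle stood at 13.2 ± 1.18 and 30.8 ± 3.68 CPM and resistant 1 at 215 ± 2.64 and 241 ± 19.0 CPM. The erythroid marker sum of resistant 1 was lower in batch 2 than in batch 1, as given above, and its part in these differences was not tested. Direction was shared by both batches in the 9 genes called in both. With library totals, the share of calls in which the fold change was higher in batch 2 moved from 45.1% to 65.6%.

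The levels of each gene over the 7 groups can be put in order. In ST6GAL1 all neighbouring groups stood apart, from resistant 2 (366 ± 14.0 CPM) through resistant 1 of batch 2, resistant 1 of batch 1, K562, batch 2 vehicle and batch 1 vehicle down to parental OCI-AML3 (4.13 ± 0.695 CPM, SD, n = 3). GNE fell into a high set of parental and vehicle groups, from 67.8 to 86.7 CPM, and a low set of 4 groups whose neighbours overlapped. CMAS had K562 and both resistant groups of batch 2 overlapping in turn, between 113 and 129 CPM on average, with resistant 1 of batch 1 above them at 163 ± 1.60 CPM. ST3GAL4 had its resistant and K562 groups overlapping in turn, from 16.7 down to 10.9 CPM on average. Levels of different batches were scaled apart, so the order between batches is a description.

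Among these 10 genes and the further genes of sialic acid biology listed below, the one whose 7 group means followed each gene most closely on the log2(CPM + 1) scale was named. For ST6GAL1 it was B4GALT4, a galactosyltransferase (r = 0.964), for CMAS it was MGAT3 (r = 0.989), and for ST3GAL2 it was B4GALNT1 (r = 0.983). ST3GAL6 and GNE were each other's closest (r = 0.997). For ST3GAL1 it was FUT8 (r = 0.976), for ST3GAL3 SIGLEC7 (r = 0.982), for ST3GAL4 MGAT4A (r = 0.971) and for ST6GALNAC4 MGAT4B (r = 0.984). ST3GAL5 had no close match, with GCNT2 nearest at r = 0.546. Each r rests on 7 points that share the split between the OCI-AML3 control groups and the rest.

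The other genes of sialic acid handling were read from lists by function, with values in the order resistant 1 of batch 1, resistant 1 of batch 2 and resistant 2, each against vehicle. They were fitted with TMM factors only. With library totals the median log2 fold change of all genes moved from 0.07 to 0.26 for resistant 1 in batch 2 and from 0.07 to 0.35 for resistant 2, so list genes with small changes there are to be read relative to that shift. The counts of called list genes are to be read against all genes tested, of which 86.0%, 75.7% and 76.1% were called (41.8%, 39.9% and 40.2% higher, and 44.2%, 35.8% and 35.9% lower). The genes named from each list were picked for calls with 1 sign in all 3 comparisons, and their values are given as a description. Of 12 further sialyltransferases, 6 could be tested in batch 1 and 7 in batch 2; 2 were higher in each comparison of resistant with vehicle, and 4, 3 and 4 were lower, beside those 86.0%, 75.7% and 76.1% of all genes called. ST6GALNAC1, which makes the sialyl-Tn antigen, had no count in any parental or vehicle library. It averaged 51.1 CPM in resistant 1 of batch 1, 36.3 in K562, 75.5 in resistant 1 of batch 2 and 119.9 in resistant 2, at least 900.2-fold, 2915-fold and 4665-fold higher in the 3 resistant groups than vehicle with 3 counts over the group as the floor. ST8SIA6, which adds alpha-2,8 sialic acid, had at most 2 counts in any parental or vehicle group and 30.5, 55.0 and 46.4 CPM in the resistant groups. ST6GALNAC1 and ST8SIA6 passed the filter on low counts only through the groups where they are high. In the same way ST8SIA5, and in batch 1 ST6GALNAC3, passed only through parental and vehicle groups. The direction of these calls was largely set by the filter, so they are a description. ST8SIA4, a polysialyltransferase, averaged 66.8 CPM in vehicle and 3.33 CPM in resistant 1 of batch 1, and 93.0 CPM in vehicle beside 3.11 and 4.07 CPM in batch 2 (adjusted p = 9.51e-21, 2.13e-12 and 3.73e-12).

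In the list of 10 genes of sialic acid supply and transport, 6 of 9 tested were higher and 2 lower in batch 1, and 4 of 10 higher and 3 lower in each batch 2 comparison. Over all genes, 41.8% were higher and 44.2% lower in batch 1, and 39.9% and 40.2% higher and 35.8% and 35.9% lower in batch 2. NANS, the synthase between GNE and CMAS in the pathway, rose by 1.55 (SE 0.05), 1.40 (SE 0.12) and 1.11 (SE 0.12) on the log2 scale. PGM3 and UAP1, which make the UDP-N-acetylglucosamine that GNE consumes, rose as well, PGM3 by 2.01, 2.40 and 2.63 and UAP1 by 1.46, 0.52 and 0.81. SLC35A1, the Golgi transporter of CMP-sialic acid, fell, with -0.59, -0.66 and -0.43, as did NANP, the phosphatase after NANS, with -0.29, -0.88 and -0.91. The same rule picked these 5 genes, so their calls are a description.

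Of 10 genes that remove or modify sialic acid, 8 were tested, with 3, 4 and 3 higher and 3, 3 and 4 lower in the same comparisons, where 86.0%, 75.7% and 76.1% of all genes were called. NEU1, the lysosomal sialidase, rose by 1.46, 2.37 and 1.77, NEU3, the plasma membrane sialidase, by 1.40, 1.37 and 1.15, and NPL, the sialic acid lyase, by 2.47, 3.87 and 3.35. CTSA, the lysosomal partner of NEU1, changed by -0.83, -1.07 and -1.36, CASD1, the sialic acid O-acetyltransferase, by -2.34, -2.83 and -3.05, and SIAE, the esterase that removes O-acetyl groups, by -0.37, -0.78 and -0.86. These 6 genes were picked for a call with 1 sign in all 3 comparisons, so that they were called is not a result.

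The glycans, receptors and carriers showed changes in both directions. Of 25 genes that build acceptor glycans, 10 were higher and 14 lower in batch 1, 10 higher and 11 lower for resistant 1 in batch 2, and 8 higher and 12 lower for resistant 2, beside 86.0%, 75.7% and 76.1% of all genes called in either direction. FUT7, which completes sialyl Lewis x after ST3GAL4 or ST3GAL6, averaged 49.3 CPM in batch 1 vehicle and 24.5 CPM in batch 2 vehicle and had no count in any resistant or K562 library, at least 893-fold lower in batch 1. MGAT3, the bisecting N-acetylglucosaminyltransferase, averaged 0.312 CPM in vehicle beside 48.4 CPM in batch 1, and 0.0215 CPM beside 29.9 and 27.4 CPM in batch 2. B4GALNT1, which extends GM3 to GM2, rose by 4.16, 6.48 and 5.79 on the log2 scale. SIGLEC7, a sialic acid receptor, averaged 43.3 and 29.1 CPM in the vehicle groups and had between 0 and 4 counts in each resistant group. CD33, the other Siglec gene picked by the rule, averaged 57.6 CPM in vehicle and 13.2 CPM in resistant 1 of batch 1. In batch 2 it averaged 41.9 CPM in vehicle, 31.5 CPM in resistant 1 and 15.0 CPM in resistant 2. Of the 14 Siglec genes, 11 and 9 could be tested in the batches, with 5 higher in each comparison and 5, 3 and 4 lower, against the same shares of all genes. CD22, MAG, SIGLEC8 and SIGLEC12 had no count in any vehicle library. SIGLEC6 had 0 counts in batch 1 vehicle and 5 in batch 2 vehicle. These Siglec genes and MGAT3 passed the filter on low counts only through the groups where they are high. In batch 2 so did B4GALNT1, with 23 counts over the vehicle libraries. FUT7 and SIGLEC7 passed it only through the parental and vehicle groups, and in batch 1 so did SIGLEC1 and SIGLEC9. The direction of such calls was largely set by the filter, so these calls are a description.

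Among 10 sialomucins and other carriers, 8 were tested, with 3, 3 and 2 higher and 4, 3 and 4 lower, where 86.0%, 75.7% and 76.1% of all genes were called. CD24, a small heavily glycosylated anchor protein, had 2 counts in batch 1 vehicle and averaged 67.1 CPM in resistant 1, while in batch 2 the means were 0.142 CPM for vehicle, 114 CPM for resistant 1 and 26.5 CPM for resistant 2. PODXL changed by -5.56, -5.68 and -5.31 on the log2 scale, and PTPRC, which encodes CD45, by -1.02, -1.04 and -0.68. CD44 changed by -2.51, -3.37 and -1.62, and MUC1 rose by 1.68, 2.94 and 2.64. The rule that picked these 5 genes required a call in all 3 comparisons, and CD24 passed the filter on low counts through the groups where it is high. In batch 1 PODXL passed it only through the parental and vehicle groups, with 21 counts over the resistant 1 libraries. The direction of these calls was largely set by the filter, so they are a description. The marker sums given above differed between the same groups, while each list held genes of both directions. The part of the markers in the changes of these lists was not tested.

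**Figure D4:**
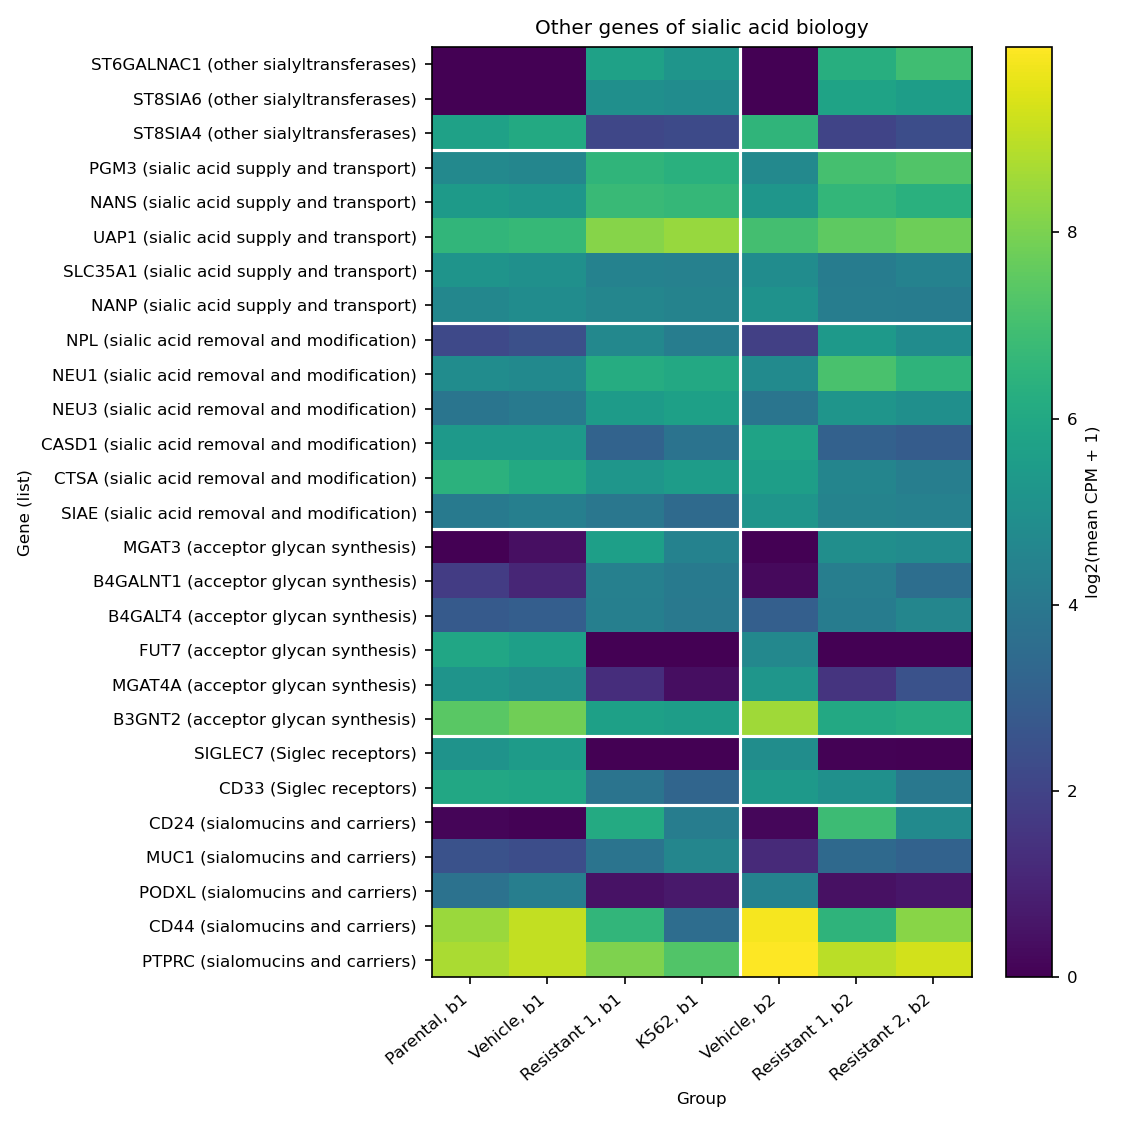
Mean level of 27 further genes of sialic acid biology in the 7 groups, as log2(mean CPM + 1) on a colour scale from dark (low) to yellow (high), with white lines between the 6 lists and between the batches. Rows such as ST6GALNAC1, MGAT3 and CD24 are dark in the parental and vehicle columns and light in the resistant and K562 columns, and FUT7 and SIGLEC7 show the reverse.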

How the data were processed

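RNA sequencing libraries of 7 groups of 3 were taken as deposited: the authors' tables, 1 per batch, hold raw read counts per gene, not normalized, aligned to hg38 per the series' design text. A strand-specific mRNA kit was used, and DESeq2 1.22.1 was used for differential expression per the submitters' processing notes. The names of the deposited tables mention STAR, an aligner; its version, the gene annotation and the strand setting of the counting are not stated. Groups came from the labels. Here edgeR 4.0.16 (R 4.3.3) fitted each batch with all its groups (filterByExpr with a minimum count of 10, TMM factors, robust quasi-likelihood test, Benjamini-Hochberg adjustment, threshold 0.05), and a fit of vehicle and resistant 1 of both batches gave the difference between batches. The procedure was tested on simulated counts in which far fewer genes changed than were called between resistant and vehicle libraries. That test therefore says nothing about the scaling where most genes change. No 2 libraries of a group were identical (chi-square per degree of freedom 1.81 to 7.18 in batch 1 and 20.8 to 84.5 in the deeper batch 2). The fit for the difference between batches used 1 estimate of spread per gene for both batches. Library totals of 14066821 to 51262668 counts limit what a low gene can show, and intervals cover counting error only. In batch 2, same-numbered libraries deviated together in resistant 1 against vehicle (r = 0.16 to 0.22) and in resistant 2 against resistant 1 (r = 0.14 to 0.37), judged from the data and not from the labels.

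The 10 genes and the lists were chosen with earlier results of these data known. The rule for further genes took, within each list, up to 3 per direction called with 1 sign in all 3 resistant comparisons, at least 5 CPM in the higher group, by the greatest smallest absolute fold change. The motif search and the fit with library totals were chosen after seeing the data. Alternatives were RLE size factors, DESeq2 1.42.0, no filter, a replicate block, only the groups compared, the longest transcript as gene length, library totals, and leaving out each library. Exon lengths came from GENCODE v44.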

Additional observations from a re-analysis of the deposited data

Results flagged for a closer look

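The fold change of resistant 1 over vehicle differed between batches 1 and 2 in 5 of the 10 genes, by the interaction term of the edgeR quasi-likelihood test over 12 libraries, with Benjamini-Hochberg adjustment over all genes. The difference is batch 2 minus batch 1 on the log2 scale, from a fit with TMM factors of its own, so it is not exactly the gap between the fold changes fitted within each batch, which are given beside it. ST3GAL5 differed by 1.67 (adjusted p = 2.73e-05), with 0.07 in batch 1 and 1.83 in batch 2. ST3GAL2 differed by 0.86 (adjusted p = 2.58e-05), with 2.30 and 3.25, a larger rise in batch 2. ST3GAL1 differed by 0.72 (adjusted p = 0.000654), with -2.48 and -1.67, and ST3GAL3 by 0.63 (adjusted p = 0.00374), with -2.51 and -1.78, so both were nearer to vehicle in batch 2. ST6GAL1 differed by -1.16 (adjusted p = 4.85e-06), with 4.04 and 2.97. Libraries labelled resistant 1 and vehicle were in both batches, so each effect stands within its own batch, and the texts at hand do not say whether both batches came from the same cultures.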

How the results depend on the processing

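Over 80 fold changes of the 10 genes in 8 comparisons, 965 of the recomputed values kept their direction and their side of the threshold, 18 crossed to a call, 11 lost one and 14 changed sign, all 14 in values that were not called. ST3GAL3 in resistant 1 against K562 stood at -0.03 and turned to 0.0050 with RLE size factors, 0.0047 with DESeq2 and 0.049 with library totals, and ran from -0.084 to 0.082 when 1 library was left out. Leaving out 1 library also turned GNE in that comparison (-0.0033 to 0.11) and, in resistant 2 against resistant 1, ST3GAL4 (-0.016 to 0.37), ST3GAL5 (-0.054 to 0.25), ST3GAL6 (-0.16 to 1.18), CMAS (-0.28 to 0.070) and GNE (-0.013 to 0.065). The count of the 10 genes called between vehicle and parental cells ran from 3, without parental replicate 3, to 6. The count of all genes called in resistant 2 against resistant 1 was 3706 and ran from 2323 to 4814, lowest without replicate 1 or 3 of either group; the cause was not tested. A replicate block gave 4543 there, 5565 against 5054 for the difference between batches, and 12488 for resistant 1 against vehicle in batch 1, 11858 for the same in batch 2, 11939 for resistant 2 against vehicle, 5089 for vehicle against parental cells, 12348 for K562 against parental OCI-AML3 and 7559 for resistant 1 against K562. Under this paired fit ST6GALNAC4 in resistant 2 against resistant 1 (-0.38) and CMAS in the difference between batches (-0.29, adjusted p = 0.0286, range 0.00398 to 0.446) became calls, and it changed no other call of the 10 genes. Depth limits ST3GAL6 in the resistant and K562 groups, with 0 to 5 counts per group. With the longest transcript as length, most levels per kilobase rose by more than the spread between libraries.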
